A study of Mus musculus with 5 samples.

Results

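miR-150 and miR-342 are miRNAs of blood leukocytes, and each hairpin gives 2 mature arms. The mature arms mmu-miR-150-5p, mmu-miR-150-3p, mmu-miR-342-3p and mmu-miR-342-5p (written without the prefix for mouse from here on) were taken from the arrays by their mature names, with no threshold on measured values, and they are 4 of the 1122 mouse miRNAs with probes on the array. Together they have 12 of 2847 probes and 160 of 44880 spots. miR-342-3p was detected on all 5 arrays, and its levels after flagellin and in medium overlapped, with a fold of 1.04 (95% interval 0.874 to 1.23, 3 arrays against 2). The other 3 arms were detected on 0 of 5 arrays. The cells were bone marrow-derived dendritic cells (BMDCs) of C3H/HeJ mice, an inbred strain with a defective Tlr4 gene, which all 5 samples share. Bone marrow was cultured with GM-CSF and IL-4, and CD11c+ cells were sorted with magnetic beads. RNA came from cells kept for 24 h either with flagellin at 100 ng/ml (3 arrays) or in medium alone, the mock group (2 arrays). Flagellin is the protein of bacterial flagella that TLR5 recognizes, and the arrays were made to find miRNAs that differ between these groups. The mice were bought at 6 weeks of age, female or male. Whether the samples of a group came from separate cultures is not given in the sources used here, so p-values measure the spread between these samples only.

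A miRNA hairpin is cut into a 5p and a 3p arm, and usually 1 arm is loaded into Argonaute as the guide while the other is degraded. Positions 2 to 8 of the guide, the seed, pair with target mRNAs. miR-150-5p is the guide of its hairpin, is abundant in mature B and T lymphocytes, and is known to limit the transcription factor c-Myb. Mir342 lies within Evl, a gene of the Ena/VASP family of actin regulators, and its 3p arm is the guide that blood cells mostly contain. In the RefSeq annotation of GRCm38.p6, Mir150 lies on chromosome 7 within no other gene. Mir342 lies on chromosome 12.

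The mature sequences are shown because the members differ in which of their bases the array can read. In the RefSeq entries found for 3 of the 4 members, the seed is in capitals.
miR-342-3p: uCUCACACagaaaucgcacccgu
miR-342-5p: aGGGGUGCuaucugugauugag
miR-150-3p: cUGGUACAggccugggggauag
The 3 seeds differ from each other, and 0 other mature names of the 1679 in the RefSeq table hold any of them.

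Array probes pair with the 3′ end of the miRNA. In the probes below, as deposited, capitals mark the bases that pair with the seed.
miR-342-3p, 16-base probe: acgggtgcgatttctG
miR-342-3p, 17-base probe: acgggtgcgatttctGT
miR-342-5p, 16-base probe: ctcaatcacagataGC
miR-342-5p, 19-base probe: ctcaatcacagataGCACC
miR-150-3p, 10-base probe: ctatccccca
miR-150-3p, 13-base probe: ctatcccccaggc
The miR-342-3p probes pair with bases 8 to 23 and 7 to 23. The longest miR-342-5p probe pairs with bases 4 to 22, and the longest miR-150-3p probe with bases 10 to 22, outside the seed. By the probe annotation deposited with the arrays, in mm9, the miR-342-3p probes map to chr12:109896897-109896912 and the miR-342-5p probes to chr12:109896852-109896869. The same annotation places the miR-150-3p probes at chr7:52377177-52377189 and the miR-150-5p probes at chr7:52377138-52377153. The mapped interval of each miR-342 probe is 1 base shorter than the probe. The longest stretch that miR-342-3p probes share with a probe of another mouse miRNA is 8 bases, with miR-195-5p.

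The measurement used was the total gene signal, an intensity that the scanner software sums over those probes of a miRNA with a signal more than 3 times as large as its error. Where no probe passes, the miRNA counts as undetected and is written as 0.1. Between 292 and 317 mouse miRNAs were detected per array, 277 on all 5 arrays and 793 on none, so most of the miRNAs on the array were, like the 3 undetected arms, never detected. No spot was saturated. In no pair of arrays did any of the 277 miRNAs detected on all 5 arrays have an identical signal. Over these miRNAs, the SD of the log2 signal difference was 0.273 between flagellin replicates 1 and 2 and 0.214 between the medium arrays. Between flagellin replicate 3 and flagellin replicates 1 and 2 it was 0.358 and 0.383. Against medium replicates 1 and 2 it was 0.286 and 0.240, so this array lay nearer to medium than to its own group. All arrays were on 1 slide, the flagellin arrays in its columns 2 and 3 and the medium arrays in its column 4. The effects of column and of treatment therefore cannot be told apart.

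The total gene signal of miR-342-3p after flagellin was 834, 789 and 660 on the 3 arrays. In medium it was 786 and 702. The mean was 761 ± 90.4 (SD, n = 3) after flagellin. In medium it was 744 ± 59.1 (SD, n = 2). Flagellin replicate 1 was the brightest and flagellin replicate 3 the dimmest, so both medium values lay inside the range of the flagellin values. The error that the scanner software gave lay between 7.16% and 7.22% of the signal on each array.

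Arrays differed in brightness as a whole, and each signal was therefore scaled to its array, with the 75th percentile of the 277 miRNAs detected everywhere as the divisor. That percentile was lowest on flagellin replicate 3, at 211, and between 246 and 293 on the others. After scaling, the level of miR-342-3p was 2.97, 2.69 and 3.13 after flagellin and 2.78 and 2.85 in medium, as multiples of the percentile. The order of the arrays changed with it, since flagellin replicate 3 went from the lowest raw signal to the highest scaled one. The medium values again lay inside the flagellin range. On the log2 scale the means were 1.55 ± 0.11 (SD, n = 3) and 1.49 ± 0.025 (SD, n = 2).

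**Figure D1:**
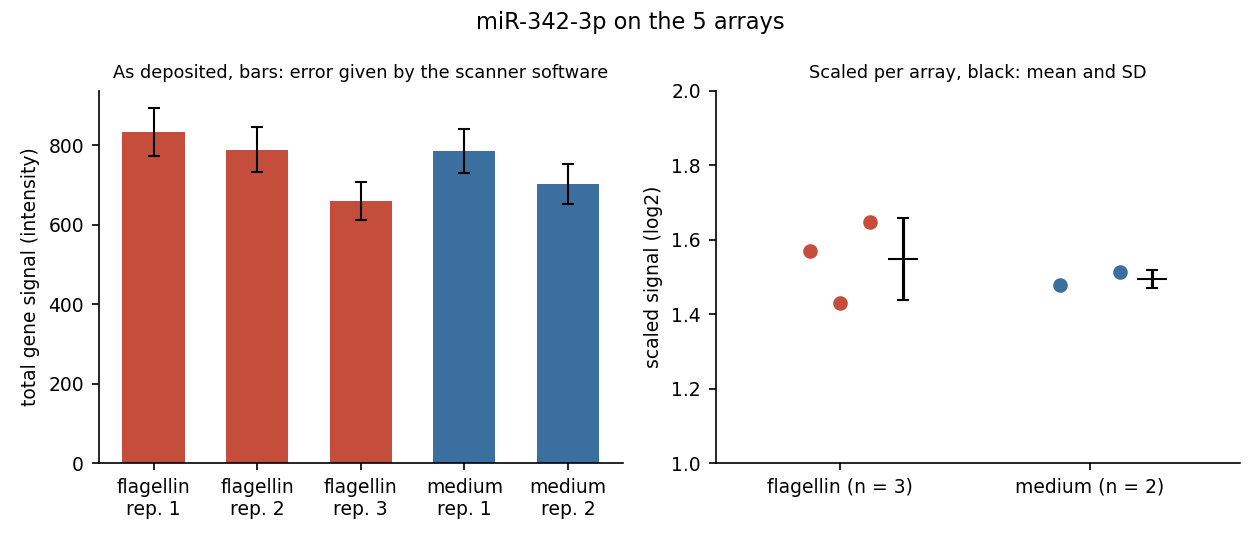
Left, the total gene signal of miR-342-3p (intensity, linear axis) on each of the 5 arrays, with bars for the error given by the scanner software. Right, the log2 scaled signal of the same arrays by group, with the mean and SD in black and an axis that does not start at 0. The medium arrays lie between the flagellin arrays in both panels, and flagellin replicate 3 is lowest on the left (660) and highest on the right (1.65).

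In limma's test across the 307 mouse miRNAs detected on at least 2 arrays, miR-342-3p had a log2 difference (flagellin minus medium) of 0.05, with a standard error of 0.094 and an adjusted p = 0.896. The 95% interval ran from −0.19 to 0.30, or a fold of 0.874 to 1.23 around 1.04, so a change past these bounds in either direction lies outside it. Of the 4 members, 1 was tested and 0 were called at an adjusted p under 0.05 by limma, nor was any at an unadjusted p under 0.05. Over all 307 miRNAs, 0.651% were called, namely miR-5112 and miR-466i-3p, named here after their values were seen, and both read lower after flagellin. Leaving out any single array brought this to 0 calls by limma, with 4 to 58 miRNAs at an unadjusted p under 0.05. With all arrays, 5.86% had an unadjusted p under 0.05. By qRT-PCR, the paper found miR-5112 significantly lower after flagellin but miR-466i-3p almost unchanged. For that reason the paper proposes that the microarray might have given false positives. The groups overlapped for miR-342-3p, the only member with values, where 11.4% of the 307 lay wholly higher after flagellin and 8.79% wholly lower. The median difference of all 307 was 0.0095 on the log2 scale, and 75 of them (24.4%) had a smaller absolute difference than miR-342-3p. Over the 5 arrays its log2 scaled signal spanned 0.218, where the median span of the 277 miRNAs was 0.328. Without flagellin replicate 3 the difference was −0.02 (adjusted p = 0.891 in limma's test), where the median of all tested miRNAs was −0.045. With quantile normalization the difference was −0.06, where that median was 0.029. The data therefore give no settled sign. In total RNA of a cell population, fewer cells with the miRNA and less of it per cell cannot be told apart.

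**Figure D2:**
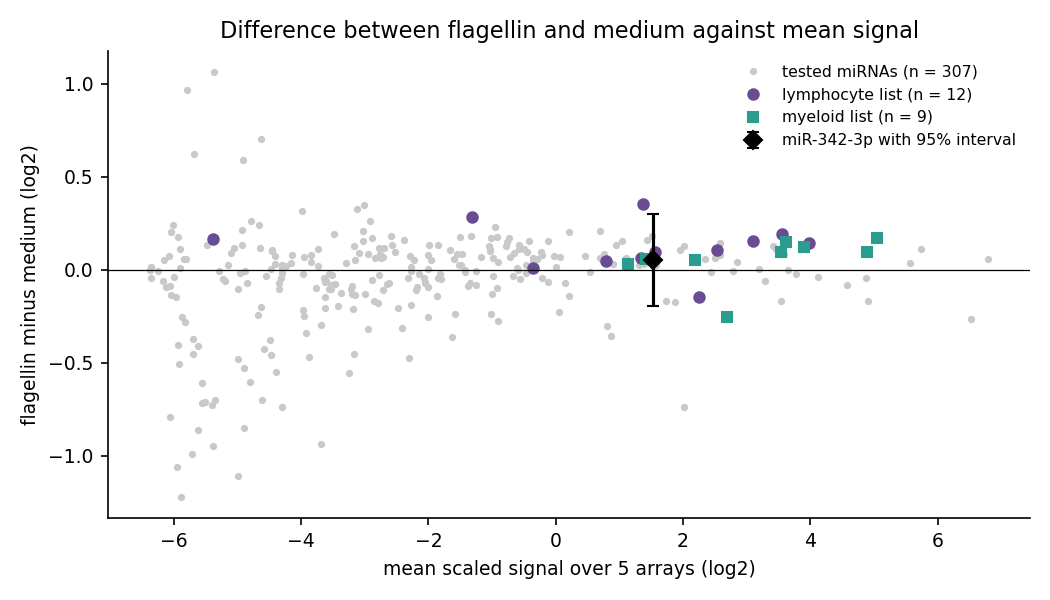
Difference between flagellin and medium (log2, vertical) against the mean scaled signal over the 5 arrays (log2, horizontal) for the 307 tested miRNAs in grey. The black diamond is miR-342-3p with its 95% interval, which spans 0, circles are 12 lymphocyte miRNAs and squares are 9 myeloid miRNAs.

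Array row on the slide held arrays of both groups. Within row 1, flagellin replicates 1 and 3 had log2 scaled signals of 1.57 and 1.65 and medium replicate 2 had 1.51. Within row 2, flagellin replicate 2 had 1.43 and medium replicate 1 had 1.48. The sign thus differed between the rows, and with row as a block the difference was 0.03 (adjusted p = 0.909 in limma's test).

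The 2 probes of miR-342-3p were also read one by one. The 16-base probe had a total probe signal of 358, 341 and 287 after flagellin and 347 and 299 in medium. The 17-base probe, which reads 1 more base of the seed, had 475, 448 and 373 after flagellin and 438 and 403 in medium. In both probes flagellin replicate 1 was the brightest array and flagellin replicate 3 the dimmest, and the groups overlapped. After scaling, flagellin minus medium was 0.05 on the log2 scale for the 16-base probe (p = 0.7, two-sided exact permutation test) and 0.06 for the 17-base probe (p = 0.5, same exact test), with an adjusted p of 0.7 over the 2 probes. With 3 arrays against 2 there are 10 splits, and the smallest p the exact test allows is 0.1. Without flagellin replicate 3 the 16-base probe's difference was −0.0066.

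The ratio of the longer to the shorter probe does not depend on the scaling of an array. It was 1.33, 1.32 and 1.30 after flagellin and 1.26 and 1.35 in medium, where the medium arrays held the lowest and the highest value. The mean ratio was 1.31 ± 0.015 (SD, n = 3) after flagellin and 1.30 ± 0.059 (SD, n = 2) in medium, and the log2 ratio differed by 0.01 (p = 0.8, two-sided exact permutation test). The ratio holds the brightness of each probe as well as the amount bound, so only its change between arrays is read here.

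Each probe was printed in 20 spots. All 40 spots of miR-342-3p were well above background on each array, and the scanner software marked 2 of them as outliers, both on flagellin replicate 3. The coefficient of variation between spots was 9.92% to 20.5% for the 16-base probe and 6.15% to 9.74% for the 17-base probe. On each array the 16-base probe had the wider relative spread.

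**Figure D3:**
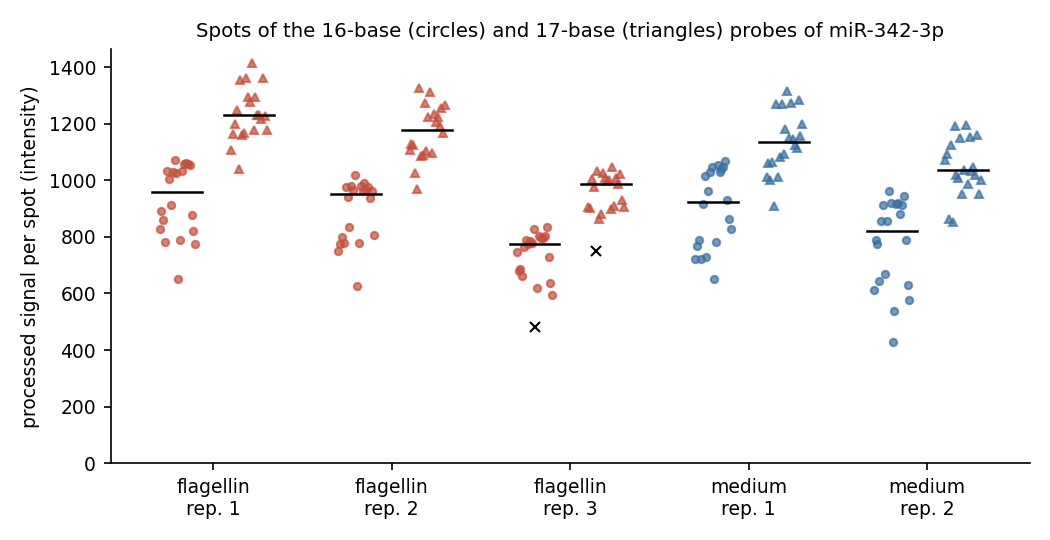
Processed signal (intensity, linear axis from 0) of the 20 spots of each miR-342-3p probe on the 5 arrays, circles for the 16-base and triangles for the 17-base probe, with black lines at the medians and crosses at the 2 spots marked as outliers. Flagellin arrays are red and medium arrays blue. Every spot stands far above 0, and the medians of both probes are lowest on flagellin replicate 3.

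The 3 mouse miRNAs nearest to miR-342-3p over the 5 arrays were miR-669a-5p, miR-378-3p and miR-181b-5p. Nearness was the root mean square difference of log2 scaled signals, each centred on its own mean, and it was 0.024, 0.026 and 0.028 for these, against a median of 0.126 over the 276 miRNAs compared. Like miR-342-3p, each of the 3 was highest on flagellin replicate 3 and lowest on flagellin replicate 2, a likeness by which they were chosen. The divisor used for scaling was lowest on flagellin replicate 3, at 211, and highest on flagellin replicate 2, at 293. Before scaling, the signals of all 4 were lowest on flagellin replicate 3. The log2 differences of the 3 between flagellin and medium were 0.04, 0.03 and 0.01. All 4 share the same 5 arrays and scaling, and likeness over 5 arrays is a description with no test.

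**Figure D4:**
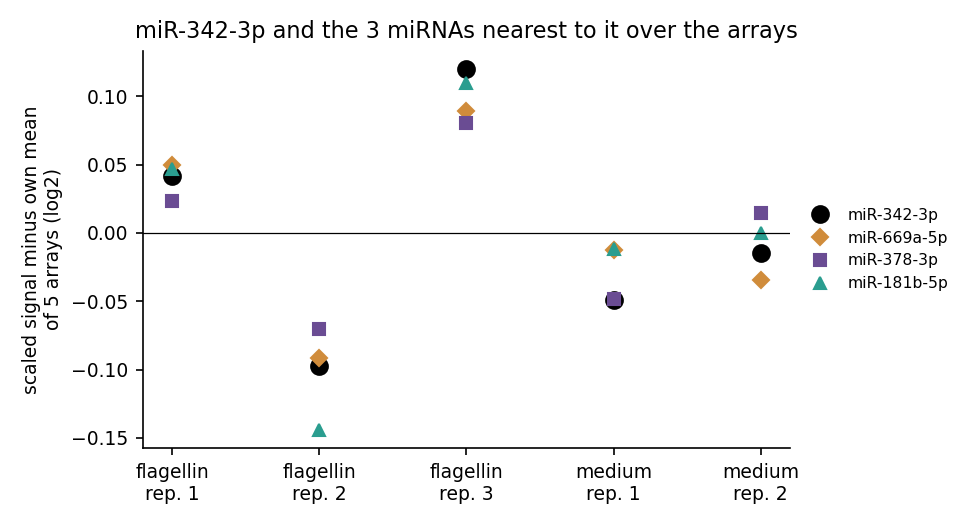
Log2 scaled signal minus its own mean over the 5 arrays, for miR-342-3p (black) and the 3 miRNAs nearest to it, on each array. All 4 are highest on flagellin replicate 3 and lowest on flagellin replicate 2, with the medium arrays between.

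The other arm of the same hairpin, miR-342-5p, was not detected on any array. Its 4 probes have 16 to 19 bases, and none had a signal above 3 times its error. The 19-base probe came nearest, with a signal over error of 1.47, 1.09 and 1.23 after flagellin and 1.76 and 1.47 in medium, where 3 was needed. It was positive on all 5 arrays, and its flagellin and medium values overlapped. Its signal lay between 0.947 and 1.31, and the limit of 3 errors for the probes of this miRNA lay between 2.19 and 2.70. The 18-base probe was positive on 4 arrays, with a signal over error between −0.062 and 0.524. The 17-base probe was positive on 1 array and the 16-base probe on none.

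Longer probes stood higher over their error in general. Among the probes of the 793 mouse miRNAs detected on no array, the median signal over error was −0.848 for probes of 10 bases and 0.165 for probes of 22 bases. Set against probes of its own length, the 19-base probe of miR-342-5p was above 175 of the other 183 (95.6%) by its median over the arrays, where theirs had a median of −0.139. The 18-base probe was above 165 of 216 (76.4%) and the 16-base probe above 60 of 277 (21.7%). Of 184 probes with 19 bases, 43 (23.4%) were positive on all 5 arrays, as this one was.

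miR-150-5p, the arm that lymphocytes contain in abundance, was not detected on any array. Its 15-base probe had a signal over error of −0.119, −0.269 and 0.110 after flagellin and −0.407 and 0.240 in medium. Its 16-base probe had 0.255, −0.331 and 0.230 after flagellin and 0.013 and 0.017 in medium. These values lay on both sides of 0 in both groups for the shorter probe and never came near 3. The limit of 3 errors was a signal of 4.39 to 5.36, and the highest signal of either probe was 0.414. By the median over the arrays, the 15-base probe stood above 72.9% and the 16-base probe above 72.6% of the other undetected miRNAs' probes of the same length. The longest stretch that they share with another mouse miRNA's probe is 10 bases, with miR-3971, which was undetected as well.

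miR-150-3p, the passenger arm, was not detected either. Its 4 probes have 10 to 13 bases, and those of 10, 11 and 12 bases were below 0 on all 5 arrays. The 13-base probe had a signal over error of −0.195, −0.099 and −0.079 after flagellin and 0.231 and −0.173 in medium. Only medium replicate 1 was positive. The 10-base probe was above 4 of 22 other undetected probes of its length and the 13-base probe above 115 of 164.

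**Figure D5:**
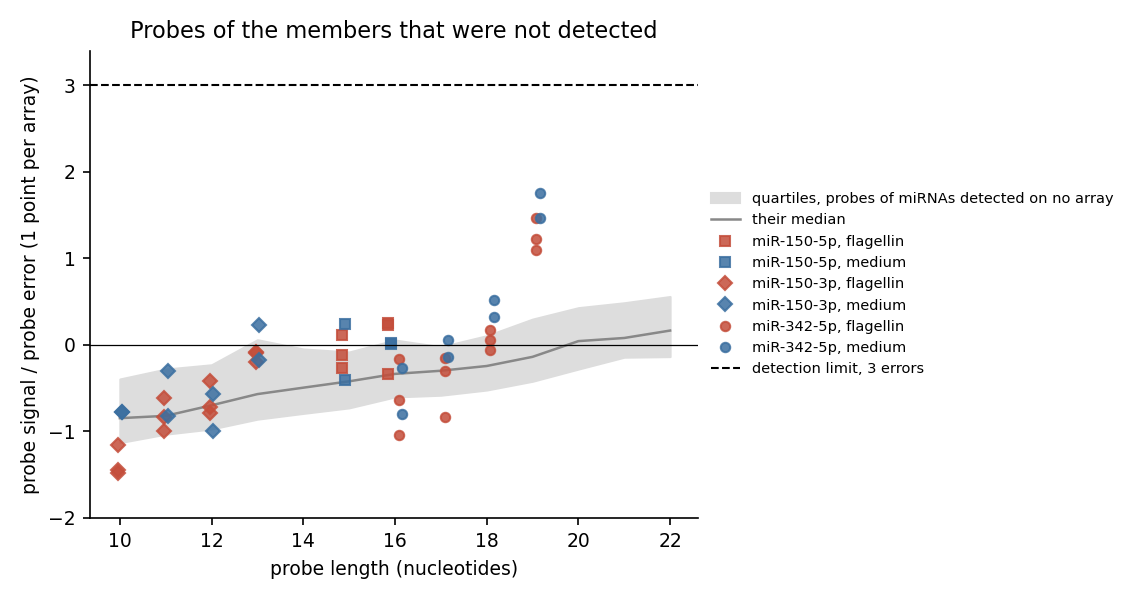
Probe signal over probe error (vertical, 1 point per array) against probe length in nucleotides for the 10 probes of miR-150-5p (squares), miR-150-3p (diamonds) and miR-342-5p (circles), flagellin in red and medium in blue. The grey line and band are the median and quartiles of probes of all mouse miRNAs detected on no array, and the dashed line is the detection limit of 3 errors, which every point lies below. The 19-base probe of miR-342-5p stands highest, between 1.09 and 1.76.

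Spot by spot, the undetected arms were read against the 7 negative control sequences of the array. The median processed signal of the 40 spots of miR-150-5p was between −1.49 and 1.17 on the 5 arrays, that of miR-150-3p between −3.72 and −1.997 and that of miR-342-5p between −0.311 and 1.30. The medians of the control sequences ran from 1.22 to 6.30. On each array the 3 arms lay below the lowest control median, except miR-342-5p on flagellin replicate 2, at 1.30 against 1.22. Of 200 spots over the arrays, miR-150-3p and miR-342-5p had 0 well above background. miR-150-5p had 1, a spot of its 16-base probe on medium replicate 1 that read 1410 while the other 19 spots of that probe read −3.40 to 6.60. The scanner software marked this spot as an outlier, and the total probe signal on that array was 0.020 with an error of 1.46. The cause of the bright spot was not tested.

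Because no hairpin had both arms detected, no ratio of 5p to 3p arm and no ratio of miR-150-5p to miR-342-3p could be formed on any array, and no fold between groups is given for the 3 undetected arms. Their absence from the detected set sets only the bounds above and does not show that the cells lacked them.

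Beside the cell type label, miRNAs known from blood cells and from other cell types were read. None of them sets dendritic cells apart from other myeloid cells. miR-223-3p, a miRNA of granulocytes and macrophages, and miR-142-3p and miR-142-5p, of all blood cell lineages, were detected on all 5 arrays, with a summed scaled signal of 18.6 to 22.5 after flagellin and 19.99 to 21.0 in medium. Of 4 erythroid miRNAs on the array, miR-451 was detected on flagellin replicates 1 and 2 and the others on no array, with a sum, in which an undetected miRNA counts as 0, of 0 to 0.058 after flagellin and 0 in medium. Of 6 stromal miRNAs, miR-214-3p, miR-143-3p and miR-145-5p were detected on no array and 3 on at least 1, with a sum of 0 to 0.206 after flagellin and 0 to 0.020 in medium. Of 2 endothelial miRNAs, miR-126-3p was detected, at 0.027 to 0.099 after flagellin and 0.020 to 0.044 in medium. All 3 of these sums were highest on flagellin replicate 2, the array with the lowest scaled miR-342-3p, and their part in its value was not tested.

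Other miRNAs known from lymphocytes and from myeloid cells were read as 2 lists. The list names are not read as markers of a lineage. Of the lymphocyte list, 11 were detected on all 5 arrays of these sorted CD11c+ cells. Of 18 miRNAs named as lymphocyte miRNAs, 17 are on the array and 12 were tested, of which limma called 0 at an adjusted p under 0.05 and 2 at an unadjusted one, where 5.86% of all tested passed the latter. The median log2 difference of the 12 was 0.12, 11 were positive in sign, as 51.8% of all 307 were, and 4 had all flagellin values above both medium values, which 11.4% of all tested miRNAs had. Without flagellin replicate 1, 7 of the 12 were positive in sign, with a median of 0.04, where the median of all tested miRNAs was −0.025. With any other single array left out, 9 to 11 were positive in sign, with a median of 0.065 to 0.135. The 3 with the smallest p were miR-155-5p, induced when leukocytes are activated, at 0.35 (standard error 0.095), miR-146a-5p, an inhibitor of Toll-like receptor signalling, at 0.28 (standard error 0.086) and miR-16-5p at 0.14. The adjusted p of the first 2 was 0.65 by limma. Like miR-150-5p, 4 of the list were detected on no array, namely miR-31-5p, miR-182-5p, miR-183-5p and miR-96-5p. On the arrays where miR-342-3p overlapped, miR-155-5p had scaled signals of 2.97, 2.69 and 2.95 after flagellin and 2.12 and 2.37 in medium, without overlap.

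Of 13 myeloid miRNAs, 12 are on the array and 9 were tested, of which limma called 0, at an adjusted or at an unadjusted p under 0.05. Their median log2 difference was 0.096, against 0.0095 for all 307, 8 were positive in sign against 51.8% of all 307, and 2 had all flagellin values above both medium values against 11.4%. Without flagellin replicate 1, 6 of the 9 were positive in sign, with a median of 0.023, where the median of all tested miRNAs was −0.025. With any other single array left out, 6 to 8 were positive in sign, with a median of 0.072 to 0.084. The myeloid miRNAs with the smallest p were miR-24-3p at 0.17, miR-223-3p at 0.096 and miR-27a-3p at 0.15. With all arrays miR-342-3p, at 0.05, lay below the median of both lists, and its own interval from −0.19 to 0.30 holds both medians. Without flagellin replicate 2 it was at 0.096, above the myeloid median of 0.080 and below the lymphocyte median of 0.109.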

How the data were processed

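Total RNA of 3 flagellin-stimulated and 2 medium-treated BMDC samples was labelled with Cy3 and hybridized to 1-colour Agilent mouse miRNA arrays. The authors extracted intensities with Feature Extraction (10.7.3.1 per the file headers), and the deposited intensity files hold processed spot signals, total probe signals and total gene signals. The authors also deposited log2 values made in GeneSpring, which were found to be log2 total gene signals shifted by 1 constant on each array (largest deviation 9.58e-06) and served as an alternative.

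For each array the divisor was the 75th percentile of total gene signals among the 277 miRNAs of mouse found on every array. Scaled values under 0.0121 were set to this floor, and log2 was taken (floor −6.37). The 307 miRNAs detected on at least 2 arrays were tested with limma 3.58.1 in R 4.3.3 (default prior, Benjamini-Hochberg adjustment). The script was tested on simulated data. Probes were compared with exact permutation tests in Python 3.11.15. Mature sequences came from RefSeq, which matched 3 of the 4 members. The members are always named, with the 3 miRNAs nearest to a member detected on all arrays and at most 3 miRNAs per list by smallest p. Members and lists were chosen with earlier results of these data known. miR-28a-5p and miR-21a-5p of the lists are not on the array under these names. The number of arrays limits the precision.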

Additional observations from a re-analysis of the deposited data

How the results depend on the processing

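The log2 difference of miR-342-3p kept its sign under 19 of 21 alternatives. It was not called at an adjusted p under 0.05 under any of the 21. Some alternatives could not change the difference, because miR-342-3p was detected on all 5 arrays. It stayed at 0.0533 with another floor, filter or detection rule, with a plain t-test and with a variance trend. The sign under these settings therefore says nothing about robustness. The difference reversed to −0.0597 with quantile normalization and to −0.0233 without flagellin replicate 3, where the median of all tested miRNAs was 0.029 and −0.045. Single arrays left out gave a difference of −0.0233 to 0.0961. With the percentile over all mouse miRNAs it was 0.23, where the median of all tested miRNAs moved to 0.19. The 16-base probe reversed to −0.0066 without flagellin replicate 3, and its range with single arrays left out was −0.0066 to 0.108, while that of the 17-base probe was 0.012 to 0.117. The count of miRNAs that limma called at an adjusted p under 0.05, 2 as reported, was 0 with quantile normalization, no scaling, the percentile over all mouse miRNAs, both settings at probe level, no detection rule and array row as a block (8 to 28 had an unadjusted p under 0.05). It was 1 with no filter, a filter for detection on all arrays, limma's trend and array column as a random block, and 4 with the lower floor, signals under 1 set to 1 and the authors' values. With any single array left out it was 0 (unadjusted 4 to 58). The methods' t-test gave 2 after Benjamini-Hochberg adjustment and 14 unadjusted.

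Deviations from the group mean in samples of equal replicate number had correlations of −0.043 and −0.076 over 277 miRNAs. With 2 medium arrays these deviations are exact opposites in medium, so the 2 correlations are not independent. They cannot decide whether such samples share a culture or a day. With the replicate block miR-342-3p was at 0.0039 (adjusted p = 0.987 in limma's test), and limma called 0 miRNAs, with 39 at an unadjusted p under 0.05. The arm ratios and their alternatives were not run, because 3 of the 4 arms were detected on no array.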
